A study of Mus musculus with 9 samples.

Results

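The 10 genes described here carry the cyclic AMP (cAMP) signal from the membrane to the nucleus: Gnas, Adcy7, Pde4a, Pde4b, Pde4d, Prkaca, Prkacb, Prkar1a, Creb1 and Crem. They were chosen by symbol and role from a table of 23413 genes, and all 10 were among the 11393 genes with enough counts to be tested. The table holds polyadenylated RNA from liver macrophages of male C57BL/6 mice that were 5 weeks old when they went on normal chow (NC, called normal diet in the labels) or a high-fat diet (HFD) for 8 weeks. There were 2 NC libraries, 3 libraries from HFD-fed mice injected with vehicle (PEG3000), and 4 from HFD-fed mice injected with diphenyleneiodonium (DPI), each from a mouse numbered in its label. According to the methods of the study, DPI at 2 mg/kg or vehicle was given intraperitoneally every 5 days from week 3, with 6 injections in all, and the cells were sorted as F4/80+CD11b+Gr1low. The labels instead describe purified cells given 500 nM DPI for 24 h, and the groups here rest on the diet and treatment named for each library. DPI was studied as an agonist of GPR3, an orphan receptor that signals through Gs and is known for raising cAMP without an added ligand. The study traced the rise in glycolysis with DPI to GPR3, β-arrestin2 and PKM2, and also named DPI as an inhibitor of NADPH oxidases. The question put to the 10 genes was whether the machinery downstream of a Gs-coupled receptor differed with the diet or with the compound.

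In this pathway a Gs-coupled receptor activates the alpha subunit encoded by Gnas, which in turn activates adenylyl cyclases such as the one encoded by Adcy7. The cAMP they make is broken down by phosphodiesterases of the PDE4 family and binds the regulatory subunits of protein kinase A (PKA), which then release active catalytic subunits. PKA phosphorylates CREB1 and its relative CREM, which bind the cAMP response element (CRE) in target promoters, and in macrophages the pathway is known for restraining inflammatory cytokines. None of these steps was measured directly, since the libraries give RNA levels only.

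Library totals ran from 3534325 to 15585775 counts, and 27% to 44.5% of a library's counts fell on Rn45s, the ribosomal RNA precursor. Levels are given as CPM, the count scaled by edgeR's TMM method to a common library total. Libraries with up to 3 counts of a gene were taken to be at the floor. These 3 counts were worth 0.184 to 1.02 CPM, which covers counting error only. The NC libraries differed most from each other: across genes their rank correlation was 0.740, while the vehicle libraries gave 0.867 to 0.880 and the DPI libraries 0.838 to 0.887. General macrophage markers summed to 15618 to 44341 CPM, most of it from Lyz2 (13960 to 42867 CPM), which monocytes and neutrophils also express. Csf1r was at 385 to 750 CPM and Emr1, the gene of the sorting marker F4/80, at 54.9 to 142 CPM, the latter called lower with HFD (log2 fold change -1.05, edgeR unadjusted p 0.0152), while Aif1 was called higher (1.57, unadjusted p 0.00566). No other of the 9 general markers was called. Defining Kupffer cell (KC) genes were sparse in most libraries. Marco had 0 counts in 8 of the 9 libraries, Vsig4 0 to 49 counts, Timd4 0 to 28, and Clec4f 0 and 244 counts in NC, 42, 0 and 0 in vehicle, and 219, 6, 4 and 6 in DPI. The cells are therefore called sorted liver macrophages here. With DPI, 4 of 6 eosinophil markers tested were called higher (Prg2, Epx, Ear1 and Ear6) and 3 of 11 neutrophil markers (Ngp, Ltf and Camp), where 1.50% of all genes were. The other 2 eosinophil markers, Ear2 and Il5ra, had negative log2 fold changes (-0.41 and -0.09). So did 5 neutrophil markers, from -0.69 for Retnlg to -0.15 for Csf3r, S100a8, S100a9 and Cxcr2 among them. Prg2 was at 79.3, 89.9, 0.371 and 47.7 CPM in DPI 1 to 4, and at most 1.81 CPM in the other libraries. With HFD, 3 of 8 hepatocyte markers tested and 2 of 11 neutrophil markers were called lower, where 4.63% of all genes were. Called higher were 3 of 11 T and NK cell, 1 of 11 neutrophil, 1 of 6 B cell and 1 of 7 dendritic cell markers, against 7.03% of all genes. Among 7 monocyte and among 6 KC markers tested, 1 was called lower and 1 higher. Endothelial markers are given below. The part of these cells in the values below was not tested.

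The PKA subunits are the members on which most of the results turn, so the CRE sequences near their starts are shown first. Windows from 250 bases before to 50 bases after each start (RefSeq, GRCm38.p6) were searched on both strands for the full palindrome TGACGTCA and for its 5-base part TGACG, read as CGTCA on the other strand and contained in the palindrome. RefSeq windows were matched for 9 of the 10 members, 27 windows in all, and Crem had none in the table used. The palindrome was present in 1 of the 9 genes, Prkar1a, against 2.03% of 27025 genes. The 5-base part was present in 7 of the 9 (77.8%), against 23% of all genes. Members with several starts have more windows to search, and by window the 5-base part was in 11 of 27 (40.7%), against 20.8% of all windows. The matches are letters in a window and were not tested for binding. The capitals mark the match in each 30-base stretch, written 5′ to 3′ along the gene's strand, and the positions count from the transcript start that the window belongs to.
Prkar1a, chr11:109650882-109650911, plus strand, palindrome 39 bases after a start and intronic in GENCODE M21: ggccagagcgaggcgcatTGACGTCAgcag
Prkar1a, chr11:109650750-109650779, plus strand, 100 bases before a start and intronic for a longer transcript: gttctagctagaTGACGacgggctaagggt
Prkar1a, chr11:109649200-109649229, plus strand, 151 bases before a start and outside the annotated gene: tttgcttttattCGTCAgtgttaatacagt
Prkacb, chr3:146813031-146813060, minus strand, 102 bases before a start and outside the annotated gene: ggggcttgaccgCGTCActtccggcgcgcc
Prkaca, chr8:83972960-83972989, plus strand, 6 bases before a start and outside the annotated gene: gggctgcgggggCGTCAcggacagaggact
Prkaca, chr8:83972846-83972875, plus strand, 120 bases before a start and outside the annotated gene: gtctgcaactcgCGTCActcatccaggagc

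With HFD, RNA of Pde4d rose, that of the PKA regulatory subunit Prkar1a was 1.84-fold higher without reaching the size required of a call, and no other member had an unadjusted p under 0.05. With DPI, no member was called, and the clearest separation was the catalytic subunit Prkacb, 1.75-fold higher than in the vehicle group. The call rule follows the methods used for this series. A gene was called when edgeR's quasi-likelihood test gave an unadjusted p under 0.05 and the log2 fold change was at least 1 in size. By this rule 1 of 10 members was called between the vehicle and NC groups, where 11.7% of all genes tested were called, and 0 of 10 between the DPI and vehicle groups, where 2.84% were. At an unadjusted p under 0.05 alone the counts of members were 2 and 0, against 13% and 4.13% of all genes. No member passed the Benjamini-Hochberg adjustment by edgeR in either comparison (smallest adjusted p 0.314 and 0.999), which 0.0614% and 0.00% of all genes passed. Libraries of the compared groups did not overlap for 5 members between vehicle and NC, 4 higher and 1 lower with HFD, where 27.5% of all genes did not overlap. They did not overlap for 1 member between DPI and vehicle, against 5.85% of all genes. The share of members called was thus near the background, and the genes below are described one by one. The median log2 fold change of the members was 0.44 with HFD and -0.03 with DPI, against 0.03 and 0.04 over all genes, and it was positive for 6 and 4 of the 10, against 51.5% and 53.1% of all genes. Both comparisons use the same 3 vehicle libraries, so a value that is low or high in vehicle moves both. In bulk RNA of sorted cells, fewer cells of a type and less RNA per cell cannot be told apart.

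**Figure D1:**
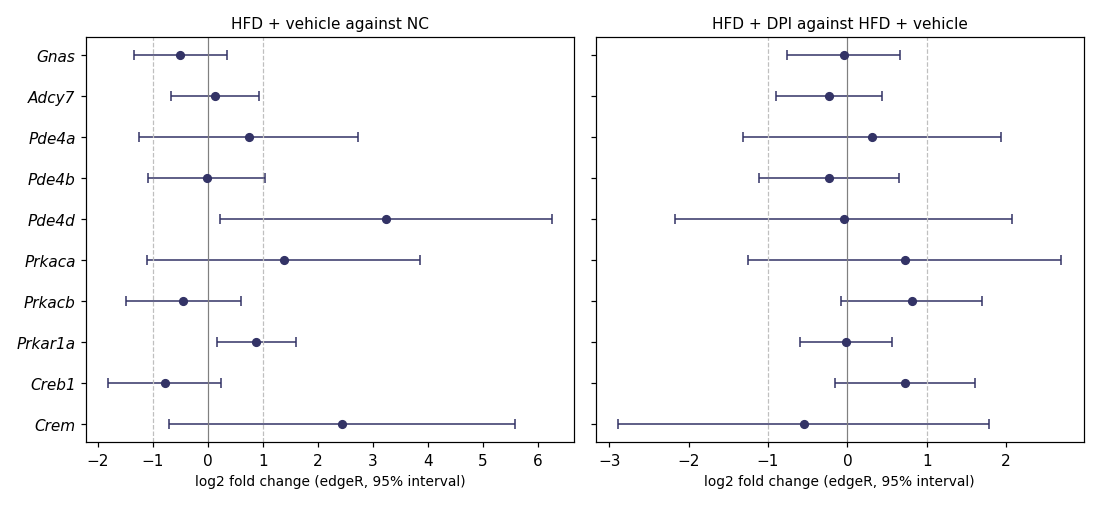
Log2 fold changes of the 10 members with 95% intervals from edgeR's quasi-likelihood fit, vehicle-treated HFD against NC on the left and DPI against vehicle on the right, with dashed lines at a log2 fold change of 1 in either direction. The intervals of Pde4d and Prkar1a lie above 0 with HFD, and every interval spans 0 with DPI, that of Prkacb reaching from -0.08 to 1.70.

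**Figure D2:**
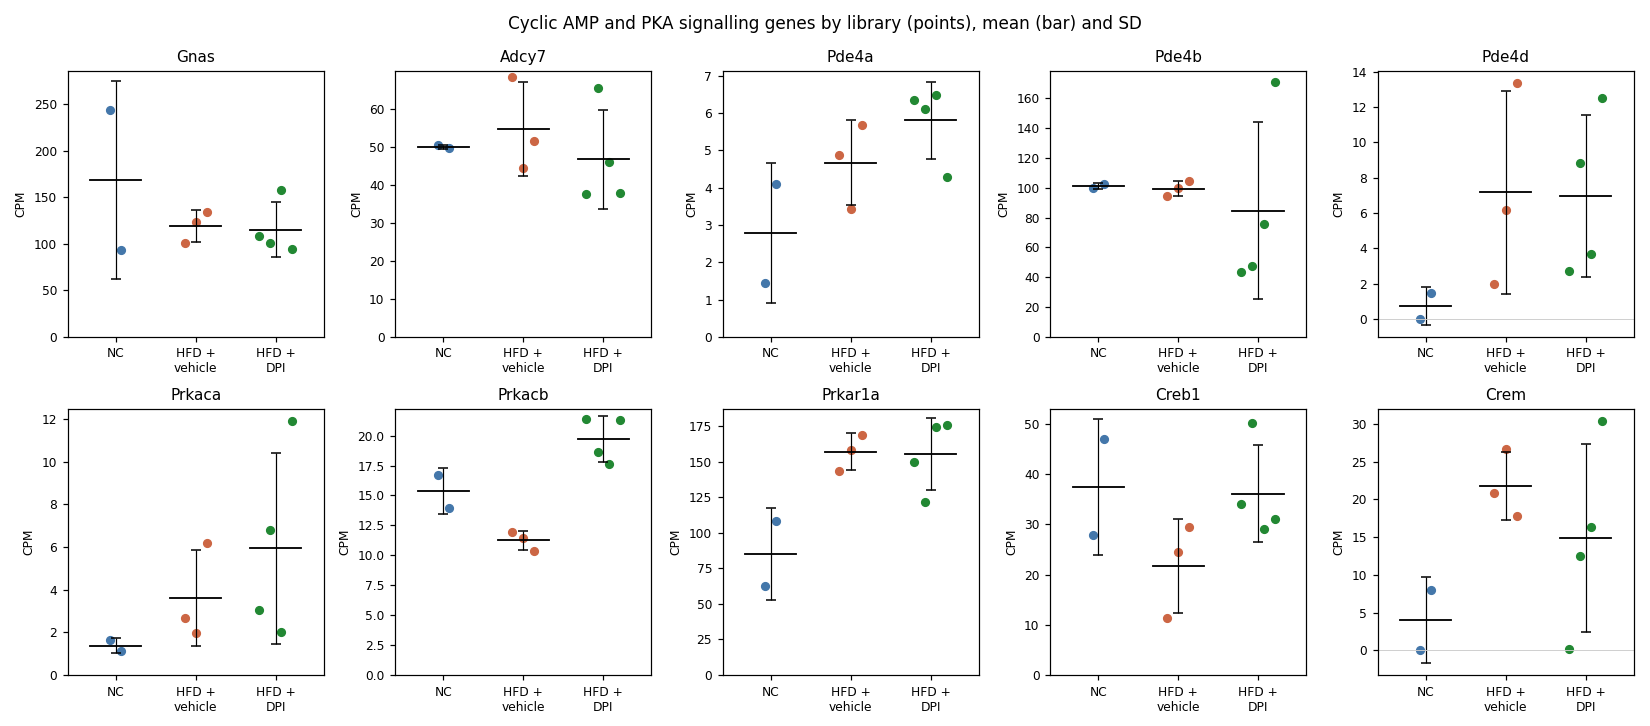
Scaled CPM of each member in each library (points), with the group mean (bar) and SD (line), for NC, HFD with vehicle and HFD with DPI. Prkar1a is lower in both NC libraries than in all the others, and Prkacb is lowest in the 3 vehicle libraries.

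Gnas encodes the stimulatory alpha subunit and lies on chr2:174284320-174346744 (GRCm38), a locus with several overlapping transcripts, so its count covers more than the Gs subunit alone. Its level was 244 and 93.6 CPM in the NC libraries, 100, 123 and 134 CPM in the vehicle libraries, and 108, 101, 158 and 94.6 CPM in the DPI libraries. All values but that of NC 1 lay within 93.6 to 158 CPM, and the groups overlapped. The log2 fold change was -0.50 with HFD (SE 0.39, 95% interval -1.35 to 0.34, edgeR adjusted p 0.625) and turned to 0.36 without NC 1, whereas without NC 2 it was -1.01 and passed the threshold (unadjusted p 0.0237 by edgeR). With DPI it was -0.05 (95% interval -0.76 to 0.67).

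Adcy7 (chr8:88272403-88329962) encodes a cyclase common in blood cells that Gs and Gβγ activate together. It was measured at 50.4 and 49.6 CPM in NC, at 68.3, 44.4 and 51.5 CPM in vehicle, and at 37.6, 65.5, 45.9 and 37.9 CPM in DPI. The groups overlapped throughout, with the highest value in vehicle 1 and the lowest in DPI 1. The log2 fold change was 0.13 with HFD (SE 0.37, 95% interval -0.67 to 0.93) and -0.23 with DPI (SE 0.31, 95% interval -0.90 to 0.43).

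Of the PDE4 genes, which encode cAMP-specific phosphodiesterases, Pde4b supplied most of the RNA and Pde4d was the member called with HFD. Pde4b (chr4:102087543-102607259), the form most often tied to inflammatory signalling in myeloid cells, stood at 99.7 and 103 CPM in NC and at 94.2, 99.6 and 104 CPM in vehicle. These 5 libraries were within a narrow range, and the log2 fold change was -0.03 (SE 0.49, 95% interval -1.09 to 1.04). In the DPI libraries it was 43.7, 47.8, 75.4 and 171 CPM. DPI 1 to 3 were below every vehicle library and DPI 4 was above them, so that the log2 fold change of -0.23 (SE 0.41) became -0.84 without DPI 4 (SE 0.29, edgeR unadjusted p 0.0134, adjusted p 0.880). DPI 4 was also the library with the highest summed level of 11 neutrophil markers, 5707 CPM, against 1176, 955 and 3962 CPM in DPI 1 to 3 and 2599 to 4014 CPM in vehicle. S100a8 and S100a9 carried most of that sum (1896 and 2352 CPM in DPI 4), and Csf3r and Cxcr2 were also highest in DPI 4 (370 and 246 CPM). Of the granule genes, Elane, Mpo and Camp were lower in DPI 4 (7.74, 3.46 and 23.2 CPM) than in each other DPI library, while Ltf and Ngp (87.0 and 202 CPM) were above DPI 1 and DPI 2 and below DPI 3. DPI 4 also had the highest sums of 6 B cell markers, 429 CPM against at most 127 CPM in DPI 1 to 3, and of 8 dendritic cell markers, 408 CPM against 122 to 256 CPM. The part of these markers in the level of Pde4b was not tested.

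Pde4d (chr13:108449948-109953461) had 0 and 8 counts in NC, 9, 34 and 54 counts in vehicle and 45, 26, 20 and 123 counts in DPI. As scaled levels these were 0 and 1.49 CPM, then 1.99, 6.16 and 13.4 CPM, then 2.75, 8.82, 3.71 and 12.5 CPM. Both NC libraries were below all the others, vehicle 1 by a small margin over NC 2. With HFD its log2 fold change was 3.23 (SE 1.40, 95% interval 0.22 to 6.25, edgeR unadjusted p 0.0374, adjusted p 0.358). The call was lost without NC 1 (2.25), vehicle 2 (3.33), vehicle 3 (2.48), DPI 2 (3.28) or DPI 4 (3.23), and the direction was kept each time. Without NC 2 the value was 8.60, but the only NC library then left had 0 counts, so this size depends on the fit's treatment of zeros and is no bound. With DPI the log2 fold change was -0.05 (SE 0.99, 95% interval -2.17 to 2.08), an interval too wide to say that the groups were alike. Pde4a (chr9:21165714-21213248) was read at 1.45 and 4.10 CPM in NC, 4.88, 3.44 and 5.69 CPM in vehicle, and 6.37, 6.10, 6.48 and 4.28 CPM in DPI. The groups overlapped in both comparisons, with log2 fold changes of 0.74 (SE 0.92) and 0.31 (SE 0.76). The value with HFD was 0.19 without NC 1 and 1.69 without NC 2.

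Among the PKA catalytic subunits, Prkacb (chr3:146729574-146812990) separated the DPI from the vehicle libraries. Its level was 16.7 and 14.0 CPM in NC, 12.0, 11.4 and 10.4 CPM in vehicle, and 21.4, 18.7, 17.6 and 21.3 CPM in DPI. The 3 vehicle libraries were the lowest of the 9 and the 4 DPI libraries the highest, with NC between them. The log2 fold change was 0.81 with DPI (SE 0.41, 95% interval -0.08 to 1.70, edgeR unadjusted p 0.0713, adjusted p 0.999) and -0.45 with HFD (SE 0.48, 95% interval -1.49 to 0.59, adjusted p 0.751). The value with DPI stayed between 0.75 and 0.86 when each library was left out in turn. It did not reach the threshold in any alternative, and its groups were among the 3.38% of all genes whose DPI libraries all lay above the vehicle libraries. Prkaca (chr8:83972993-83996443), the other catalytic subunit among the members, was low, with 9 and 6 counts in NC, 12, 11 and 25 counts in vehicle, and 50, 20, 11 and 117 counts in DPI. In scaled units it was 1.64 and 1.12 CPM, then 2.66, 1.99 and 6.19 CPM, then 3.06, 6.78, 2.04 and 11.9 CPM. The NC libraries were below the vehicle libraries, while DPI and vehicle overlapped, and the log2 fold changes of 1.37 with HFD (SE 1.15) and 0.72 with DPI (SE 0.92) came with intervals of -1.10 to 3.85 and -1.25 to 2.70. With DPI the value was 0.12 without DPI 4 and 1.34 without vehicle 3, and with HFD it was 0.79 without vehicle 3.

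Prkar1a (chr11:109649405-109669656) encodes the type I alpha regulatory subunit, which holds the catalytic subunits inactive until cAMP binds. It was at 62.4 and 108 CPM in NC, 143, 158 and 169 CPM in vehicle, and 150, 122, 174 and 175 CPM in DPI. Both NC libraries were below all 7 libraries from HFD-fed mice. With HFD the log2 fold change was 0.88 (SE 0.33, 95% interval 0.17 to 1.59, edgeR unadjusted p 0.0191, adjusted p 0.314), under the size of 1 that a call requires. It was 0.55 without NC 1 (p 0.194 by edgeR) and 1.36 without NC 2 (p 0.00625), so the estimate rested on which NC library was kept. With DPI it was -0.01 (SE 0.27, 95% interval -0.59 to 0.57), the narrowest interval of any member in that comparison.

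Because Prkar1a was lowest in NC and Prkacb lowest in vehicle, the ratio of their CPM was computed, a quantity chosen after the values were seen and given with no test. It was 3.73 and 7.72 in NC, 12.0, 13.9 and 16.3 in vehicle, and 6.99, 6.53, 9.90 and 8.23 in DPI. The 3 vehicle libraries had the highest ratios of the 9, and NC and DPI overlapped. A second ratio set Prkar1a, Prkar1b, Prkar2a and Prkar2b over Prkaca and Prkacb, per kb of transcript. It was 4.77 and 11.9 in NC, 12.2, 14.3 and 9.21 in vehicle, and 7.23, 5.74, 11.5 and 4.69 in DPI, and the groups then overlapped. Prkx, among the other PKA subunits listed, was in neither ratio. It was at 44.4 to 78.9 CPM over the 9 libraries, with log2 fold changes of -0.21 with HFD and 0.0065 with DPI. Per kb, Prkacb made up 82.4% and 85.2% of the RNA of Prkaca and Prkacb in NC, 43.6% to 72.5% in vehicle and 45.1% to 79.9% in DPI. Prkar1a made up 66.1% and 76.8% of the regulatory RNA in NC, 78.6% to 91.6% in vehicle and 75.6% to 94.3% in DPI, and Prkar2a, Prkar2b and Prkar1b made up the rest. Of the PDE4 RNA per kb, Pde4b held 93.2% and 96.7% in NC, 81.3% to 91.2% in vehicle and 73.4% to 88.2% in DPI, while Pde4d held 0% and 1.49%, 2.13% to 11.5%, and 4.72% to 14.9%. In all 7 libraries from HFD-fed mice the Pde4b share was below, and the Pde4d share above, both NC values.

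**Figure D3:**
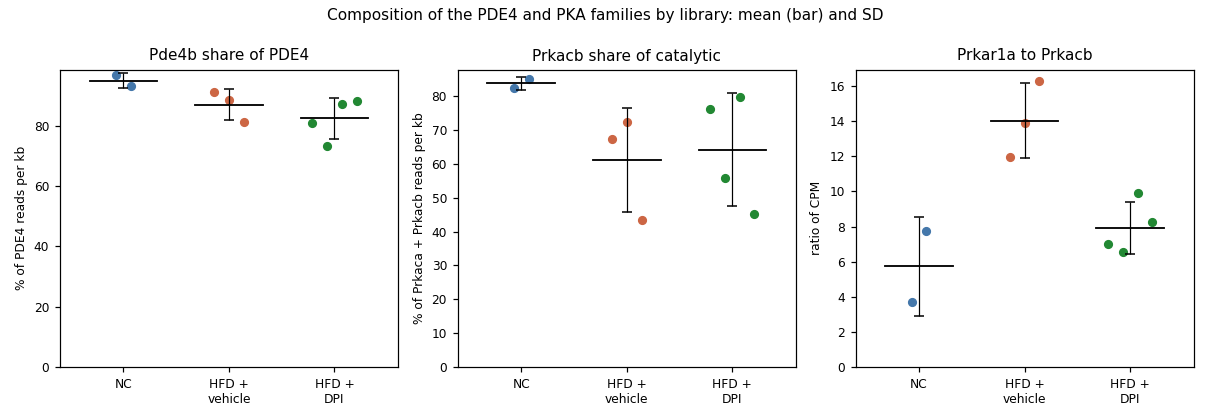
Share of PDE4 reads per kb that came from Pde4b (left), share of Prkaca and Prkacb reads per kb that came from Prkacb (middle), and ratio of Prkar1a to Prkacb CPM (right), for each library (points) with group mean (bar) and SD (line). The Pde4b and Prkacb shares are highest in the 2 NC libraries, and the ratio is highest in the 3 vehicle libraries, at 12.0 to 16.3.

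Creb1 (chr1:64532645-64604548), the transcription factor that PKA activates, was at 27.8 and 47.0 CPM in NC, 11.3, 24.4 and 29.4 CPM in vehicle, and 34.0, 50.2, 29.1 and 31.0 CPM in DPI. Vehicle 1 was the lowest library, and the groups overlapped at vehicle 3, which was above NC 1 and DPI 3. The log2 fold change was -0.78 with HFD (SE 0.48, 95% interval -1.81 to 0.24, edgeR adjusted p 0.503) and 0.73 with DPI (SE 0.41, 95% interval -0.16 to 1.61, adjusted p 0.999). The first was -0.33 without NC 2 and -0.43 without vehicle 1, and the second 0.41 without vehicle 1. Scaled by library size alone, the value with HFD was -1.09 and passed the threshold (edgeR unadjusted p 0.033, adjusted p 0.315).

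Crem, on chromosome 18, encodes both activators and, from an internal promoter, the repressor ICER that cAMP induces, and its single count does not part them. It had 0 and 43 counts in NC, 94, 147 and 72 counts in vehicle, and 4, 37, 88 and 298 counts in DPI. The levels were 0 and 8.02 CPM, then 20.8, 26.6 and 17.8 CPM, then 0.245, 12.5, 16.3 and 30.4 CPM. Both NC libraries were below the vehicle libraries, and the DPI libraries spread over the whole range with DPI 1 near 0. The log2 fold change was 2.44 with HFD (SE 1.46, 95% interval -0.71 to 5.59, edgeR adjusted p 0.497) and -0.55 with DPI (SE 1.09, 95% interval -2.89 to 1.79). The value with DPI was -0.13 without DPI 1 and -1.19 without DPI 4, and that with HFD was 1.45 without NC 1. Without DPI 1, whose spread enters the shared estimate, the value with HFD was again 2.44 and passed the threshold (unadjusted p 0.0466 by edgeR). It also passed without NC 2 (unadjusted p 0.00349 by edgeR), when the only NC library left had 0 counts, so that the fitted value of 10.21 is again no bound.

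Per kb of the median coding transcript (GENCODE M21), Gnas was the most abundant member, with a mean of 74.7 ± 47.1 CPM per kb in NC (SD, n = 2), 52.7 ± 7.56 in vehicle (n = 3) and 51.0 ± 12.9 in DPI (n = 4). Prkar1a followed in vehicle with 46.7 ± 3.86 CPM per kb and in DPI with 46.2 ± 7.52, and in NC it had 25.4 ± 9.60, behind Gnas, Pde4b and Creb1. Pde4b was at 40.9 ± 2.10 CPM per kb in vehicle and 34.8 ± 24.5 in DPI. In vehicle the range of Prkar1a, 42.6 to 50.3 CPM per kb, overlapped that of Gnas (44.4 to 59.2) and, barely, that of Pde4b (38.8 to 43.0), while Gnas and Pde4b did not overlap. In DPI all 3 overlapped. Creb1, Crem and Adcy7 came next, with means of 15.2, 19.5 and 9.21 CPM per kb in vehicle. Prkacb, Pde4d, Prkaca and Pde4a were the lowest in each HFD group, between 1.58 and 3.25 CPM per kb in vehicle. With merged exons as the length, Prkar1a ranked first in every group, so the order at the top depends on which transcript length is used.

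Around the members, 9 lists of other genes of the pathway were examined, from receptors to target genes, with 102 genes listed, 101 found in the table and 73 tested. With HFD 15 of the 73 were called (20.5%, against 11.7% of all genes) and with DPI 5 of 73 (6.85%, against 2.84%), and none passed the adjustment in edgeR's quasi-likelihood test. Of the genes named below, Gnb2 and Adcy4 passed it with HFD by edgeR's likelihood ratio test and by DESeq2. Over all genes, 280 and 312 passed by these tests, against 7 by the quasi-likelihood test. The count with HFD fell to 7 without NC 1 and 8 without vehicle 3. The count with DPI was 2 without vehicle 3 or DPI 2, 3 without DPI 1 and 10 without DPI 4. A list's counts describe these libraries, and the lists were written with earlier results of these data known.

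Of 13 Gs-coupled receptors tested, 1 was called higher with HFD and 1 lower with DPI, where 7.03% and 1.34% of all genes were. Gpr3 itself, the receptor DPI was studied on, had 19 and 0 counts in NC, 18, 0 and 0 in vehicle, and 0, 0, 5 and 11 in DPI, too few to compare. Vipr1, a receptor for vasoactive intestinal peptide, had 1 and 0 counts in NC against 36, 5 and 42 in vehicle, and 3, 3, 11 and 16 in DPI. Ptgir, the prostacyclin receptor, was at 35.9, 12.7 and 35.1 CPM in vehicle and 9.30, 12.9, 11.7 and 9.48 CPM in DPI, a log2 fold change of -1.37 (SE 0.50, edgeR unadjusted p 0.0173, adjusted p 0.999). The groups overlapped at vehicle 2, and the call was lost without vehicle 1 (-1.14) or vehicle 3 (-1.17).

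Of 10 other G protein subunits and their chaperones, 2 were called lower with HFD, where 4.63% of all genes were, and none with DPI. Gnb2, a beta subunit, was at 185 and 66.8 CPM in NC and 36.4, 43.1 and 44.8 CPM in vehicle, with a log2 fold change of -1.60 (SE 0.40, edgeR unadjusted p 0.0013, adjusted p 0.142). Its adjusted p was 0.0191 by edgeR's likelihood ratio test and 0.0126 by DESeq2, and its log2 fold change without NC 2 was -2.13. Gnal, a relative of Gnas, and Gnai2, the inhibitory alpha subunit, had log2 fold changes of -1.72 (SE 0.74) and -0.89 (SE 0.38). As with Gnas, NC 1 was far above NC 2 for each of these genes, at 407 against 136 CPM for Gnai2 and 38.6 against 6.34 CPM for Gnal. Without NC 1 the values were -0.68 for Gnb2 (p 0.118 by edgeR), 0.12 for Gnai2 and 0.11 for Gnal, and no call was left.

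Other adenylyl cyclases were scarce beside Adcy7, with a summed level of 7.83 and 19.5 CPM in NC, at most 0.990 CPM in vehicle and 4.16 to 8.48 CPM in DPI. Of the 3 tested, 2 were called lower with HFD, where 4.63% of all genes were, and 1 higher with DPI, where 1.50% were. Adcy4 had 76 and 39 counts in NC, 0 in each vehicle library, and 21, 12, 0 and 0 in DPI. Against a floor of 3 counts per library it was at least 16.2-fold lower in vehicle than in NC, and at least 2.06-fold higher in DPI, where DPI 3 and DPI 4 had none. The adjusted p of the difference with HFD was 0.230 by edgeR's quasi-likelihood test, 0.0162 by its likelihood ratio test and 0.0219 by DESeq2. The call with DPI was lost without vehicle 1, 2 or 3 or without DPI 2 (unadjusted p 0.0667, 0.0737, 0.0646 and 0.0819 by edgeR). Adcy9 had 20 and 3 counts in NC, 0, 1 and 0 in vehicle, and 37, 0, 6 and 22 in DPI. Rapgef3, which encodes the cAMP sensor Epac1, had 30 and 16 counts in NC, 0, 1 and 0 in vehicle, and 0, 1, 0 and 0 in DPI. It was 1 of 2 other cAMP effectors tested, and was called lower with HFD. Leaving out NC 1, vehicle 1 or vehicle 3 ended the calls of Adcy9 (unadjusted p 0.307, 0.106 and 0.107 by edgeR) and of Rapgef3 (0.0989, 0.0605 and 0.0624). The call of Adcy9 was also lost without DPI 1, DPI 3 or DPI 4 (0.0536, 0.0528 and 0.0538). Endothelial markers, 8 genes, summed to 137 and 205 CPM in NC, 9.42 to 12.9 CPM in vehicle, and 158, 82.7, 4.26 and 29.5 CPM in DPI 1 to 4. In DPI 4 this sum was above every vehicle library, while Adcy4 had 0 counts. In DPI 1 and DPI 2, where the sum was highest among DPI libraries, Rapgef3 had 0 and 1 counts. Of 7 endothelial markers tested, 4 were called lower and 1 higher with HFD, where 4.63% and 7.03% of all genes were. With DPI 3 were called higher, against 1.50% of all genes. Among them Clec4g had 390 and 502 counts in NC, 0, 0 and 7 in vehicle, and 936, 95, 0 and 52 in DPI. The part of endothelial cells in the cyclase and Epac1 values was not tested. Adcy7 was at 37.6 to 68.3 CPM in every library.

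**Figure D4:**
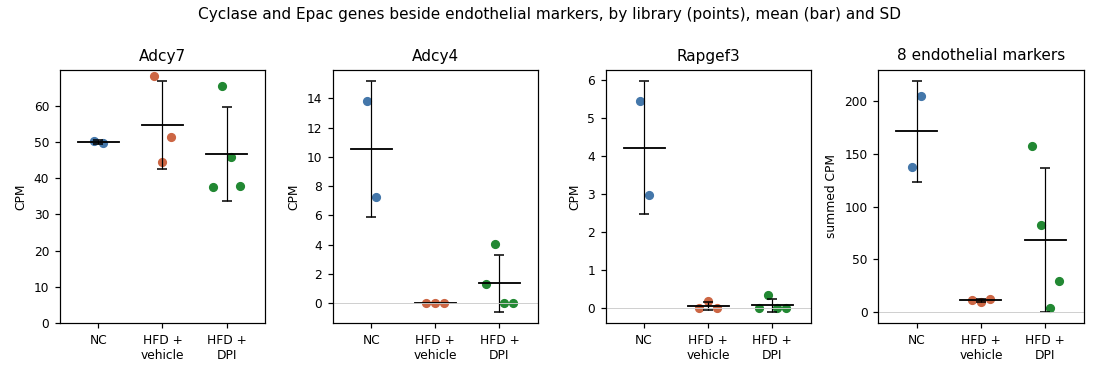
Scaled CPM of Adcy7, Adcy4 and Rapgef3 and the summed CPM of 8 endothelial marker genes in each library (points), with group mean (bar) and SD (line). Adcy4 is highest in NC, at 0 in vehicle, DPI 3 and DPI 4, and above 0 in DPI 1 and DPI 2. The summed markers are at 9.42 to 12.9 CPM in vehicle, and at 158, 82.7, 4.26 and 29.5 CPM in DPI 1 to 4. Adcy7 is present at 37.6 to 68.3 CPM in all 9 libraries.

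Among the remaining regulators of cAMP and PKA, few genes were called with HFD and none with DPI, where 11.7% and 2.84% of all genes were. Of 8 other phosphodiesterases tested, Pde7b was called higher with HFD, at 0.182 and 3.92 CPM in NC, 13.3, 4.71 and 33.7 CPM in vehicle and 9.61, 10.2, 20.4 and 10.3 CPM in DPI (log2 fold change 3.06, SE 1.09, edgeR unadjusted p 0.0145). The call was lost without NC 1 (2.13) or vehicle 3 (2.17). Of 5 other PKA subunits and inhibitors tested, Pkig was called higher, at 15.1 and 40.8 CPM in NC and 58.1, 72.6 and 59.6 CPM in vehicle. Pkig encodes a PKA inhibitor that binds free catalytic subunits, and its log2 fold change of 1.18 (SE 0.44, edgeR unadjusted p 0.0188) was 0.65 without NC 1. Of 9 A-kinase anchoring proteins tested, which tether PKA within the cell, Akap10 was called higher with HFD. It was at 3.82 and 4.10 CPM in NC, 15.3, 8.51 and 20.8 CPM in vehicle, and 17.6, 19.0, 27.0 and 9.68 CPM in DPI. All 7 libraries from HFD-fed mice were above both NC libraries, and the log2 fold change of 1.90 (SE 0.66, edgeR unadjusted p 0.0128, adjusted p 0.287) kept its call in every alternative, between 1.63 and 2.18 with each library left out. AKAP10 is known to bind type I as well as type II regulatory subunits, and thus the product of Prkar1a.

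The list of CREB partners held 9 genes, all tested: the relative Atf1, the coactivators Crtc1, Crtc2, Crtc3, Crebbp and Ep300, and the kinases Sik1, Sik2 and Sik3, which hold the CRTC coactivators in check. With HFD 2 were called higher, where 7.03% of all genes were. Crtc2 was at 27.8 and 8.95 CPM in NC and 76.2, 25.4 and 61.9 CPM in vehicle (log2 fold change 1.56, SE 0.59, edgeR unadjusted p 0.0191). Crtc1 had 0 and 7 counts in NC and 12, 50 and 50 in vehicle (3.59, SE 1.46, unadjusted p 0.0285 by edgeR). Crtc1 and Crtc2 encode coactivators that enter the nucleus when cAMP rises. The call of Crtc2 was lost without NC 2 (0.99) or vehicle 1 (1.29), and that of Crtc1 without NC 1 (2.61), vehicle 2 (3.49) or vehicle 3 (3.19). With DPI none of the 9 was called. Their log2 fold changes ran from -1.16 for Crtc1 to -0.07 for Sik2 with a median of -0.51, against 0.04 over all genes, and as the list mixes coactivators with kinases that oppose them, its median has no single direction of action.

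Of 14 CREB-responsive genes tested, 4 (28.6%) were called higher with HFD, where 7.03% of all genes were, and 3 (21.4%) were called lower with DPI, where 1.34% were. These are immediate-early genes and other targets that cAMP induces and that many other stimuli induce as well. Nr4a1, an orphan nuclear receptor, was at 625 and 949 CPM in NC, 1572, 1864 and 1867 CPM in vehicle, and 363, 521, 784 and 1666 CPM in DPI. DPI 1 to 3 were below every vehicle library and DPI 4 was among them. Its log2 fold change was 1.17 with HFD (SE 0.50, edgeR unadjusted p 0.0372) and -1.08 with DPI (SE 0.40, unadjusted p 0.0183, adjusted p 0.999). The call with HFD was lost without NC 1 (0.91), vehicle 2 (1.13) or vehicle 3 (1.18), and that with DPI without DPI 1 (-0.84) or DPI 2 (-0.92).

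Fosb and Rgs2 were lower in all 4 DPI libraries than in any vehicle library. Fosb, a subunit of the AP-1 factor, was at 69.6, 114 and 83.6 CPM in vehicle and 44.3, 34.3, 24.8 and 66.9 CPM in DPI, and fell by 1.06 on the log2 scale (SE 0.34, edgeR unadjusted p 0.00844, adjusted p 0.999). It dropped under the size of 1 without vehicle 2 (-0.84), DPI 2 (-0.98) or DPI 3 (-0.88). Rgs2, which shortens G protein signals, was at 606, 590 and 443 CPM in vehicle and 347, 342, 342 and 391 CPM in DPI, with a log2 fold change of -0.62 (SE 0.22, edgeR unadjusted p 0.0126), under the size of a call. The other genes called were Nr4a3 in both comparisons (1.93 and -1.53) and, with HFD, Dusp1 (1.26) and Per1 (2.18), named here after their values were seen. Per1 was at 60.9 and 74.4 CPM in NC and 357, 195 and 370 CPM in vehicle, and at 28.0, 47.5, 114 and 346 CPM in DPI. The count of genes higher with HFD was 1 without NC 1 or vehicle 2 and 2 without vehicle 3. The count of genes lower with DPI was 0 without DPI 2, 1 without DPI 1 or vehicle 2, and 7 without DPI 4, the library set apart above by its S100a8, S100a9, B cell and dendritic cell marker RNA, whose part in this count was not tested.

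**Figure D5:**
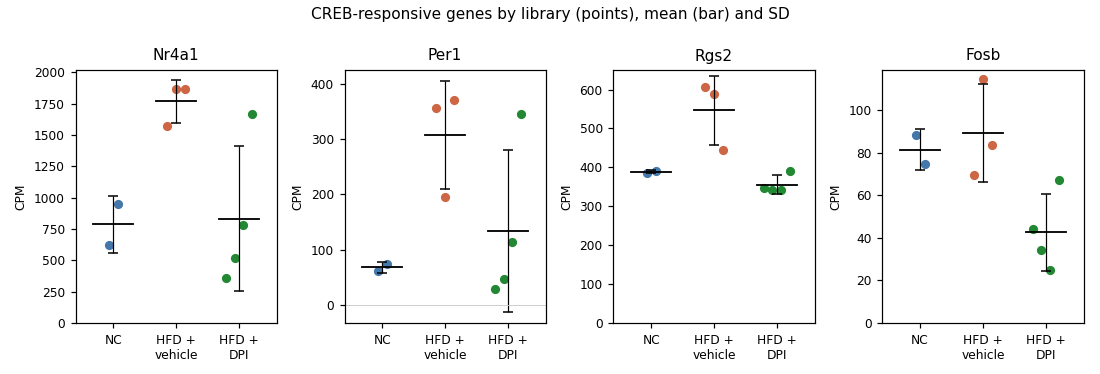
Scaled CPM of the CREB-responsive genes Nr4a1, Per1, Rgs2 and Fosb in each library (points), with group mean (bar) and SD (line). Vehicle libraries are above both NC libraries for Nr4a1, Per1 and Rgs2, all DPI libraries are below the vehicle libraries for Rgs2 and Fosb, and DPI 4 is the highest DPI library in each panel.

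The members did not move as a block across the 9 libraries. Over the 45 pairs, Pearson's r of log2 CPM ran from -0.63 between Gnas and Pde4a to 0.85 between Pde4d and Prkar1a, 23 were positive, and 5 were above 0.7. Of these 5, 4 involved Pde4d, with Prkar1a, Crem, Prkaca and Pde4a, and the fifth joined Pde4a with Prkar1a. These genes share their libraries and the low NC values, so the correlations are descriptions. The gene most like each member over the 9 libraries was Ctdnep1 for Gnas (r 0.96), Mrps10 for Adcy7 (0.89), Nop2 for Pde4a (0.98), 2810474O19Rik for Pde4b (0.94) and Ptpn23 for Pde4d (0.95). For the others it was Wdr6 for Prkaca (0.95), Prkag1 for Prkacb (0.91), Herc3 for Prkar1a (0.98), Ctsa for Creb1 (0.93) and Mapk13 for Crem (0.97). These genes are the highest of 11393 by a measure over 9 libraries, and nothing is read from them about shared control.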

How the data were processed

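RNA of sorted liver macrophages was measured in 9 mouse libraries. The authors aligned the reads to mm10 and deposited whole-number counts per gene, without normalization. The submitters' processing notes name TopHat2 and edgeR, whereas the methods of the study name bowtie2 and RSEM. RSEM shares reads between similar genes, which matters for paralogs such as the PDE4 genes, and the strand setting is not given in the sources used here, so overlapping antisense RNA at Gnas cannot be parted. Groups follow the sample labels.

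Counts were filtered with filterByExpr, scaled by TMM and tested with edgeR 4.0.16 (R 4.3.3, glmQLFit and glmQLFTest) in 1 fit of the 3 groups, with p-values adjusted by the Benjamini-Hochberg method over 11393 genes. Transcript lengths and positions came from GENCODE M21 and promoter windows from RefSeq. The test was tried on simulated data. All members were named, and from each pathway list at most 3 genes with the smallest unadjusted p under 0.05, and for each member the gene of highest Pearson r. The members and lists were chosen with earlier results of these data known. Alternatives were RLE or library size scaling, 2 other count filters, DESeq2 1.42.0, edgeR's likelihood ratio test, fits of 2 groups, the replicate number as a block, no Rn45s counts, merged exon lengths, and each library left out in turn.

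Marker lists for other cells were summed per library. Summed CPM in NC, vehicle and DPI libraries ran from 230 to 267, 467 to 962 and 278 to 540 for KC markers (mostly Id3, at 436, 917 and 450 CPM in vehicle, while 4 of 6 tested had negative log2 fold changes with HFD, median -1.91), 4261 to 4311, 4223 to 5102 and 3624 to 8108 for monocyte markers, and 1476 to 3352, 2599 to 4014 and 955 to 5707 for neutrophil markers. They ran from 73.5 to 103, 58.9 to 73.4 and 35.0 to 178 for eosinophil markers, 55.7 to 108, 196 to 310 and 122 to 408 for dendritic cell markers, and 89.8 to 339, 317 to 464 and 301 to 587 for T and NK cell markers. B cell markers ran from 14.9 to 74.2, 102 to 189 and 15.6 to 429, platelet markers from 4.55 to 16.6, 1.48 to 13.7 and 8.52 to 16.3, and hepatocyte markers from 123 to 230, 18.1 to 69.8 and 39.6 to 90.5. The part of these cells in the results was not tested.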

Additional observations from a re-analysis of the deposited data

Results flagged for a closer look

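In the group of 4 DPI libraries, 3 of the genes reported above had a library far from the other 3, by Dixon's ratio of the gap to the range (above its 95% critical value). Chance marks about 1 in 20 groups in this way. Pde7b was at 20.4 CPM in DPI 3 (ratio 0.937), with the others at 9.61 to 10.3 CPM. Rgs2 was at 391 CPM in DPI 4 (ratio 0.894), with the others at 342 to 347 CPM, and remained below the vehicle libraries. Rapgef3 was at 0.339 CPM in DPI 2 (ratio 1), which is a single count, with 0 in the others. No member was marked in this way.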

How the results depend on the processing

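The count of members called with DPI was 0 in all alternatives. With HFD it was 1. It became 0 with at least 10 counts in every sample, where Pde4d, Pde4a, Prkaca and Crem were not tested and 6 members were, or in the fit of the 2 groups compared. It was 0 without vehicle 2, vehicle 3, DPI 2 or DPI 4, and 2 without DPI 1. Over all genes, 801 were called higher and 528 lower in the main fit, and 773 and 484 without DPI 1. Without NC 1 or NC 2 only 1 NC library is left, and member calls from those fits are not counted here. Of the CREB-responsive genes, 4 were called higher with HFD, 1 by library size scaling and 1 to 6 with each library left out, and 3 lower with DPI, 1 by library size scaling and 0 to 7 with each library left out. Calls over the pathway lists were 7 to 22 with HFD and 2 to 10 with DPI with each library left out. Prkar1a moved from rank 2 to rank 1 in the vehicle group with merged exon lengths. The deviations from the group mean of 7 same-numbered pairs of libraries correlated at -0.02 to 0.08, and those of 19 other pairs at -0.08 to 0.06. Such deviations sum to 0 within each small group, so these values depend on each other. They cannot decide whether the numbers in the labels pair the libraries. With the replicate number as a block, 2 members were called with HFD (Pde4d and Crem, 3.71), Crem with DPI was -2.51 and Pde4b with DPI -0.88 (neither called), 7 CREB-responsive genes were called lower with DPI and 11 pathway genes in either direction, and Gnal (-1.65), Adcy9, Pde7b (2.55), Rapgef3 and, with DPI, Ptgir (-1.13) lost their calls.

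Signs turned for some values, most of them near 0, though Gnas (-0.50), Gnai2 (-0.89) and the called Gnal (-1.72) with HFD also turned, without NC 1. By library size scaling the signs that turned were those of Adcy7 with HFD (-0.16) and, with DPI, Gnas (0.043), Pde4d (0.10) and Prkar1a (0.085), and without Rn45s counts Pde4b with HFD (0.0027). With libraries left out, Adcy7 with HFD was -0.015 to 0.26, Pde4b -0.039 to 0.059, Gnas -1.01 to 0.36, Gnai2 -1.45 to 0.12 and Gnal -2.47 to 0.11, and with DPI, Gnas was -0.24 to 0.037, Pde4d -0.51 to 0.75 and Prkar1a -0.082 to 0.079. Library size scaling also moved the median of all genes from 0.03 to -0.255 with HFD, and the calls over all genes from 801 higher and 528 lower to 539 and 932, and ended the calls of Pde4d (2.90), Nr4a1 (0.88 with HFD, -0.97 with DPI), Fosb (-0.97), Crtc2 (1.24) and Pkig (0.91). In the fit of the 2 groups, Pde4d (3.22), Crtc1 (3.57) and Gnal (-1.72) lost theirs. Over all genes, 0 passed the adjustment with DPI by edgeR (470 at an unadjusted p under 0.05), 1 by its likelihood ratio test and 2 by DESeq2, and with HFD 7, 280 and 312. The causes were not tested. The counts of Pde4a, Pde4d, Prkaca and Crem were low, and their 95% intervals reached past 1 on the log2 scale in both comparisons.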
